A study of Mus musculus with 9 samples.

Results

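The vacuolar-type proton pump (V-ATPase) and the proteins that dock mTORC1 on the lysosome were followed through cultured mouse cells given oxyhemoglobin with or without NTR1. The genes were the rows of the count table whose symbols begin with Atp6v0 or Atp6v1 (pseudogenes left out), the accessory genes Atp6ap1 and Atp6ap2, and 18 genes of Ragulator, the Rag GTPases, folliculin, the arginine sensor Slc38a9, mTORC1, Rheb and the TSC complex. They made up 42 genes of 54134 distinct entries. The cells carry the line name HT22, a mouse hippocampal neuronal line, in the sample titles and HT-4 as their cell type, and are labelled wild type. Control cells had no intervention, the Hb group had oxyhemoglobin, the oxygen-carrying form of the blood pigment, and the Hb+NTR1 group had oxyhemoglobin together with NTR1, which the title of the series writes as NGR1. There were 3 libraries in each of the 3 groups, all of poly(A) RNA from the same line, and no group had NTR1 without oxyhemoglobin. Whether the 3 libraries of a group are separate cultures is left unsaid in the labels, and p-values then measure only the spread between these libraries, which may be technical. The labels used here state no dose or time.

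The V-ATPase is a rotary motor that pumps protons into lysosomes and other acidic compartments. Its cytosolic V1 sector splits ATP and turns a central stalk, and its membrane V0 sector carries the protons through a ring of proteolipids. On the lysosomal surface the pump touches Ragulator, the scaffold that holds the Rag GTPases. When amino acids are plentiful the Rag GTPases recruit mTORC1, a kinase complex that drives growth and that Rheb switches on there. Folliculin with FNIP1 or FNIP2 stimulates GTP hydrolysis by RagC and RagD, which lets mTORC1 hold the transcription factors TFEB and TFE3 in the cytosol. When these factors enter the nucleus they bind E-box sequences, called CLEAR elements, in the promoters of many lysosomal genes, V-ATPase genes among them. Neurons rely on the pump both for lysosomal digestion and for loading synaptic vesicles.

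Total counts per library ran from 13415648 to 16893746. Levels are given as normalised CPM (counts scaled to library size with TMM factors), in the order replicate 1, 2 and 3, and differences as log2 fold change ± SE fitted with edgeR (quasi-likelihood). P-values were adjusted by Benjamini and Hochberg's method across 13810 tested genes, and 0.05 was the threshold. Hb+NTR1 libraries lay apart from the others on the first principal component, with 71.2% of the variance. Hb replicate 2 stood apart within its group, since its counts differed from those of Hb replicates 1 and 3 by 13.2 and 11 times the sampling variance (chi-square over degrees of freedom), beside 2.53 to 5.19 in the remaining within-group pairs. The label of a neuronal line was checked against 8 neuronal markers. Snap25 and Map2 had no count in any library, 4 of the 8 were at 0 in each group, and only Tubb3, a tubulin gene, reached 1 CPM, so the data go against a neuronal label and the cells are called by their line name.

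Hb+NTR1 libraries held more RNA of most pump subunits than Hb libraries did. Of the 42 genes, 35 passed the filter on low counts, and 30 of them rose in Hb+NTR1 against Hb where 30.7% of all tested genes rose. The falls were Atp6v1g2 and Tsc2, where 31.6% of all tested genes fell, and Lamtor1, Lamtor2 and Atp6v0c were not past the threshold. In either direction 62.3% of all tested genes were called. The 3 Hb+NTR1 libraries lay above the 3 Hb libraries in 29 of the 35 (32.4% of all tested genes) and below them in 2 (32.3%). The median log2 fold change of the 35 genes was 0.74, beside -0.011 over all tested genes, whose middle 50% ran from -0.46 to 0.39. Rises of at least 2-fold were seen in 10 of the 35, all of them pump or accessory genes, and in 6.19% of all tested genes. Atp6v0a4, counted among these rises, passed the filter only through its Hb+NTR1 libraries. Markers of other cell types moved in the same comparison. The 8 neuronal markers summed to 31.9 to 34.4 CPM in control, 32.7 to 41.5 with Hb and 5.29 to 6.32 in Hb+NTR1, nearly all of it Tubb3. The 6 fibroblast markers summed to 12450 to 13190, 9492 to 10850 and 1227 to 1323 CPM, most of it the collagen genes Col1a1 and Col1a2, with only Lum at 0 in Hb+NTR1. The tested fibroblast markers moved unevenly in Hb+NTR1 against Hb, with log2 fold changes from -3.45 for Dcn to -0.28 for Pdgfra and Thy1 at -1.51. The part of the neuronal and fibroblast markers in the result was not tested. In bulk libraries fewer cells of a type and less RNA per cell cannot be told apart. Split by place, the 17 tested V-ATPase subunits had a median of 1.09 (15 higher, 1 lower) and the 16 tested docking genes a median of 0.37 (13 higher, 1 lower).

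Oxyhemoglobin alone moved few of them. In Hb against control 5 of the 35 rose, Atp6v1c1, Atp6v0b, Atp6ap2, Flcn and Fnip2, where 1.88% of all tested genes rose, and Lamtor4 fell, where 1.77% of all tested genes fell. Their median log2 fold change was 0.12, beside 0.0000 over all tested genes. In either direction 3.65% of all tested genes were called. None of the 35 changed by 2-fold. All 3 Hb values exceeded all 3 control values in 14 of the 35, beside 9.51% of all tested genes. Only the calls of Atp6v1c1 and Atp6v0b held under each of the 13 alternatives tried for this comparison. Against control, Hb+NTR1 had 28 of the 35 higher, beside 31.4% of all tested genes, and 1 lower, Atp6v1g2, beside 32.2%. The median was then 0.86, beside -0.0042 over all tested genes, and 16 rose at least 2-fold, beside 6.89%. Both Hb+NTR1 comparisons share the Hb+NTR1 libraries, and the comparisons of Hb share the Hb libraries, so their values stand side by side without a test of overlap.

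**Figure D1:**
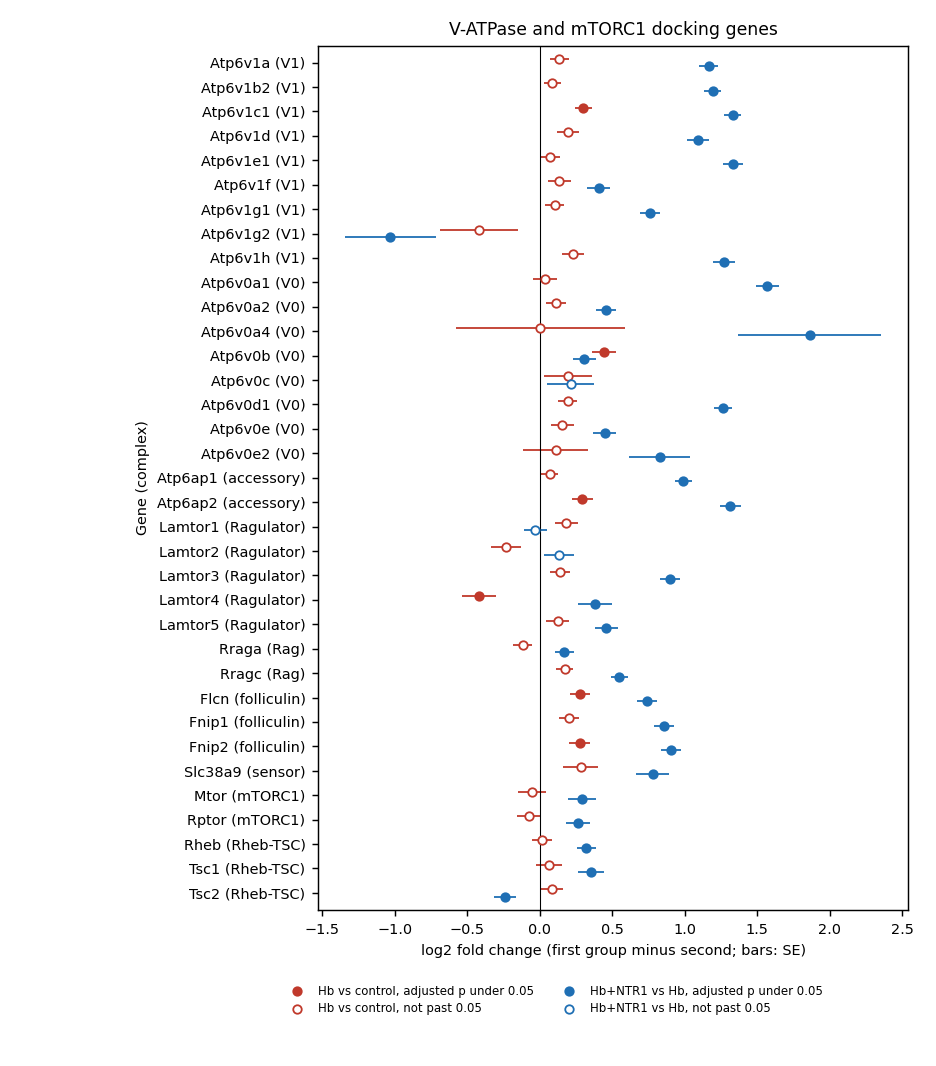
Log2 fold change (first group minus second) of the 35 tested genes in Hb against control (red) and in Hb+NTR1 against Hb (blue), with bars for the SE and filled points for an adjusted p under 0.05. The blue points of 6 V1 genes, Atp6v0a1, Atp6v0a4, Atp6v0d1 and Atp6ap2 lie beyond 1, while the red points lie between -0.42 and 0.44.

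Since many of the genes rose together, their promoters were read from the RefSeq windows of build GRCm38.p6, which run from 250 bases before to 50 bases after each transcription start. Windows were found for 35 of the 42 genes, and not for Atp6v0a2, Atp6v0d2, Atp6v1b2, Atp6v1c1, Atp6v1g1, Atp6v1h and Lamtor3. The E-box core CACGTG, which is its own reverse complement, was in the windows of 10 of the 35 (28.6%) and of 8.09% of all 27025 genes with a window. The longer TCACGTG, searched as such and as its reverse complement CACGTGA, was in the same 10 (28.6%) and in 4.29% of all genes. The core with GT before it and AC after it was in 0 of the 35 and in 0.37% of all genes. A match is a description of the letters in the window only, and no binding was measured.

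The windows of Atp6v1a (chr16:44139210-44139509, minus strand), Atp6v0d1 (chr8:105566015-105566314, minus strand), Rragc (chr4:123917183-123917482, plus strand) and Fnip1 (chr11:54437929-54438228, plus strand) are shown whole, since these genes rose in Hb+NTR1 and hold the match, and that of Atp6v0a1 (chr11:101010148-101010447, plus strand), since it rose and holds none. The Atp6v0a1 window begins downstream of the GENCODE start of the gene at 101009452. So do the windows of Atp6v1a, Atp6v0e and Rheb, which hold the match, and of Atp6v1c2 and Atp6v1g2, which do not. In these genes the stretch before the GENCODE start was not searched. Capitals mark TCACGTG or CACGTGA, or both where they overlap. The core began 131 bases before the RefSeq start of the window in Atp6v1a, 3 before it in Atp6v0d1, 112 before it in Rragc and 75 before it in Fnip1. In Atp6v1a that core lies inside the GENCODE gene, downstream of its GENCODE start at 44139705.
Atp6v1a: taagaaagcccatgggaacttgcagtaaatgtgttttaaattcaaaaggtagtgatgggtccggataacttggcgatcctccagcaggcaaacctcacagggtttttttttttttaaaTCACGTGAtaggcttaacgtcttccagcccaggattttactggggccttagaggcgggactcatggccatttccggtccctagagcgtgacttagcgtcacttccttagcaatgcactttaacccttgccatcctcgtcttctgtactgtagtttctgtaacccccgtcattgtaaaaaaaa
Atp6v0d1: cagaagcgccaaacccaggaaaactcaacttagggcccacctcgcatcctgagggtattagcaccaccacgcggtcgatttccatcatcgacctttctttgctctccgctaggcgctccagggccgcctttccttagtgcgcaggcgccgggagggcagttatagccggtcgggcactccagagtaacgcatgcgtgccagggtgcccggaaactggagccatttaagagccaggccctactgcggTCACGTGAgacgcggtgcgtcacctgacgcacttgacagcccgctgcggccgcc
Rragc: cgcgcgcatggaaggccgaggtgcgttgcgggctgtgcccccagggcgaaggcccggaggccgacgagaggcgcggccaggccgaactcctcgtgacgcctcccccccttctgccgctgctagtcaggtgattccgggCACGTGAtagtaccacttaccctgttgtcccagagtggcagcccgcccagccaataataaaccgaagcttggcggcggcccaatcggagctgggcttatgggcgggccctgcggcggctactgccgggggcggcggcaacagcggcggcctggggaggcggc
Fnip1: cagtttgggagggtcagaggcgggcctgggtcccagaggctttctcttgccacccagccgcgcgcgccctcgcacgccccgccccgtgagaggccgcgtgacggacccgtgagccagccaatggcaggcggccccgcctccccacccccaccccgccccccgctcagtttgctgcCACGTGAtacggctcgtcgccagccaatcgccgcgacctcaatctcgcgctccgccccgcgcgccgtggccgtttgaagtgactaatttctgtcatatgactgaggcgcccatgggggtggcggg
Atp6v0a1: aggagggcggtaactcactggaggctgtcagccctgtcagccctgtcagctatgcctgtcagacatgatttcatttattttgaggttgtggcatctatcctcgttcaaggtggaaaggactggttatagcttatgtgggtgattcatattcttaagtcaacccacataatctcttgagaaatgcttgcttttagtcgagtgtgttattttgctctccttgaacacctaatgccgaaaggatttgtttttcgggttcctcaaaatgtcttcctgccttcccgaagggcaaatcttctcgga

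Shorter stretches around the matches of Atp6v0b (chr4:117887325-117887382, minus strand), Atp6v0e (chr17:26676382-26676421, plus strand), Lamtor1 (chr7:101905752-101905791, plus strand), Lamtor4 (chr5:138255345-138255400, plus strand) and Rheb (chr5:24842435-24842474, minus strand) show how the flanks differ, with 2 matches each in Atp6v0b and Lamtor4.
Atp6v0b: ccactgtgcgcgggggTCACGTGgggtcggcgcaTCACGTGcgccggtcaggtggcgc
Atp6v0e: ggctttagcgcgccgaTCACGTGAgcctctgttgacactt
Lamtor1: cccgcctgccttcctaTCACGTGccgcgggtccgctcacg
Lamtor4: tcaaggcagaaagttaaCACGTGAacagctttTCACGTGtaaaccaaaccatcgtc
Rheb: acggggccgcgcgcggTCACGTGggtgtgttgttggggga

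Changes were seen with and without the match. Of the 10 genes that hold it, 9 were tested (Rragb had no counts), and 8 of the 9 rose in Hb+NTR1 against Hb with a median log2 fold change of 0.45 over the 9. Of the 25 without it, 20 were tested, 16 rose and 2 fell, with a median of 0.60. The 7 genes that lack a window are in neither median. Among them Atp6v1c1 (1.33), Atp6v1h (1.27), Atp6v1b2 (1.19), Lamtor3 (0.90), Atp6v1g1 (0.76) and Atp6v0a2 (0.46) also rose, and Atp6v0d2 was not tested. Over all tested genes 30.7% rose and 31.6% fell. Strong risers stood on both sides, Atp6v1a and Atp6v0d1 with the match and Atp6v0a1, Atp6v1e1 and Atp6ap2 without it in the window searched. Lamtor1 holds it and did not pass the threshold.

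Catalysis by V1 rests on a ring of alternating A and B subunits. Atp6v1a (chromosome 16, 44085402 to 44139705, from GENCODE M21 on GRCm38, as for all genes here) encodes the A subunit, which binds and splits ATP. It had 158, 163 and 173 normalised CPM in control, 170.4, 176 and 196 with Hb and 406, 408 and 402 with Hb+NTR1. The Hb+NTR1 libraries lay far above the other 6, and the Hb and control libraries overlapped. The rise over Hb was 2.24-fold (log2 fold change 1.17 ± 0.0649, edgeR adjusted p = 2e-13), and Hb against control gave 0.14 ± 0.0651 (adjusted p = 0.304). Its partner Atp6v1b2, the widespread B isoform, went from 136 ± 3.14 in Hb to 310.5 ± 13.2 in Hb+NTR1 (mean ± SD, n = 3), a log2 fold change of 1.19 ± 0.0603. The other B isoform, Atp6v1b1 of kidney and other acid-secreting epithelia, had 13 counts over the 9 libraries and was not tested.

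Stalk and stator subunits showed a wider range. Atp6v1c1 (chromosome 15, 38661933 to 38692446), the C subunit that leaves the pump when V1 and V0 come apart, had 106, 107 and 104 normalised CPM in control, 126, 135 and 129.9 with Hb and 329.9, 324 and 330.3 with Hb+NTR1. All 3 groups were separate, with each Hb library above each control library and each Hb+NTR1 library far above both. Its log2 fold change was 0.30 ± 0.0599 in Hb against control (edgeR adjusted p = 0.00355) and 1.33 ± 0.0591 in Hb+NTR1 against Hb (adjusted p = 3.51e-15). Atp6v1e1 (chromosome 6, 120794305 to 120822793), a peripheral stalk subunit, had 105, 109.9 and 107 normalised CPM in control, 99.7, 121 and 118 with Hb and 277, 296 and 282 with Hb+NTR1. Its control and Hb libraries overlapped, and it rose 2.52-fold with NTR1 (log2 fold change 1.33 ± 0.0696, adjusted p = 6.19e-14). Atp6v1h, whose subunit stops ATP hydrolysis in free V1, had 88, 88.3 and 89.5 normalised CPM in control, 100.4, 119 and 91.4 with Hb and 256, 242 and 253 with Hb+NTR1. Each Hb library lay above each control library, yet the call was not made there (log2 fold change 0.23 ± 0.0764, adjusted p = 0.114, and 0.0453 with library totals only and 0.021 without Hb replicate 3), while Hb+NTR1 against Hb gave 1.27 ± 0.0751 (adjusted p = 5.93e-13).

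Of the rotor and remaining peripheral genes, 3 rose and 1 fell. Atp6v1d, of the central stalk, went from 93.3 ± 9.37 to 199 ± 6.51 normalised CPM in Hb and Hb+NTR1 (log2 fold change 1.09 ± 0.0742). Its stalk partner Atp6v1f rose from 48.6 ± 3.40 to 64.5 ± 2.24 (log2 fold change 0.41 ± 0.0787, adjusted p = 9.05e-05). Within V1 this was the smallest of the 8 rises. Atp6v1g1, the widespread G subunit of the peripheral stalks, rose from 198 ± 19.5 to 335 ± 5.60 (log2 fold change 0.76 ± 0.0670). Atp6v1g2, the G isoform of brain, was the tested V1 gene that fell. It stood at 3.79, 2.93 and 2.58 normalised CPM in control, 1.91, 2.05 and 3.04 with Hb and 1.17, 1.33 and 0.905 with Hb+NTR1, with every Hb+NTR1 library under every Hb library (log2 fold change -1.03 ± 0.313, adjusted p = 0.00635). The call ended without Hb replicate 3 (adjusted p = 0.0503), and 144 of its exon bases overlap Nfkbil1 on the opposite strand, whose reads cannot be told from its own without strand. The C isoform Atp6v1c2 had 1 count over the 9 libraries, and Atp6v1e2 of testis and Atp6v1g3 of kidney had none, which allows up to 3 counts, or 0.178 to 0.224 CPM, in a library.

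**Figure D2:**
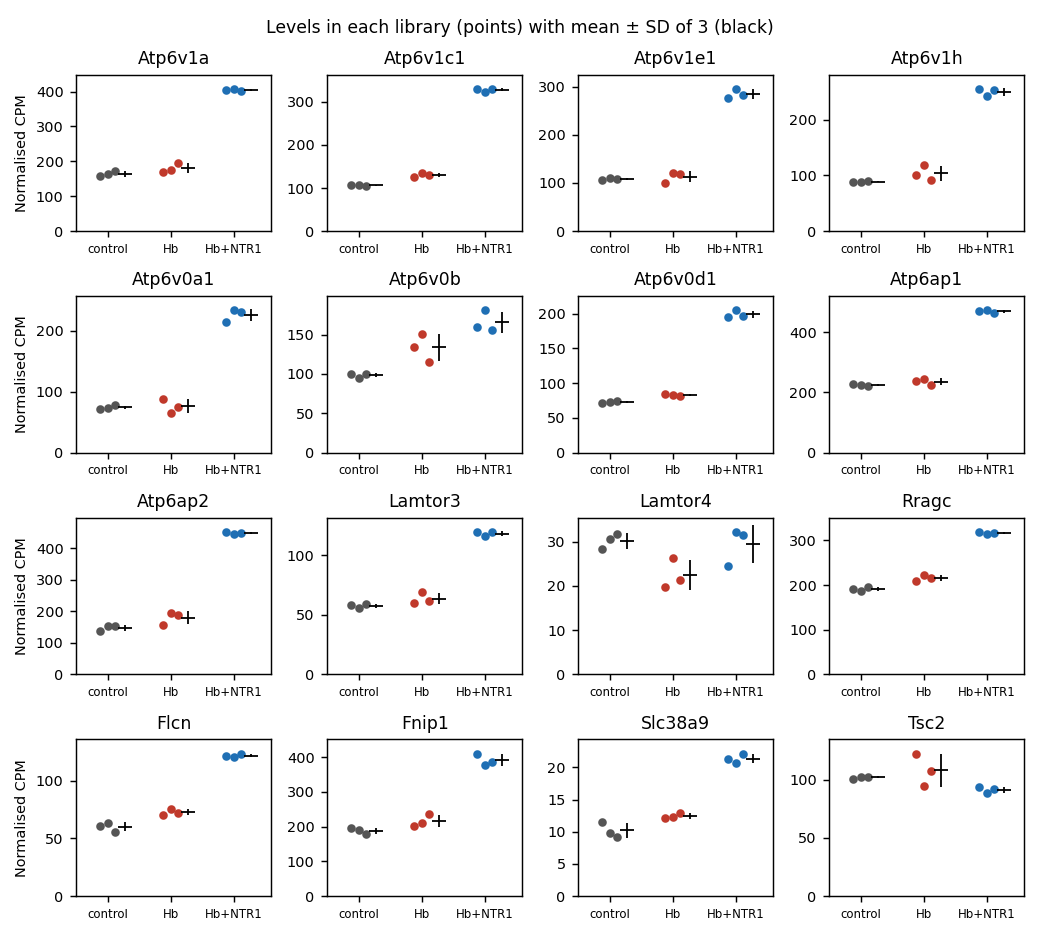
Normalised CPM (vertical axis, from 0) of 16 of the genes in each library, by group, with the mean ± SD of 3 libraries in black. In the panels of the pump subunits other than Atp6v0b the Hb+NTR1 libraries lie well above the other 6, with Atp6v1a at 402 to 408 CPM, and Lamtor4 and Tsc2 differ from the rest in direction.

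In V0, subunit a holds the channels through which protons enter and leave the ring, and its isoforms direct the pump to different membranes. Atp6v0a1 (chromosome 11, 101009452 to 101063719), the isoform of neurons and synaptic vesicles that other tissues also make, had 71.8, 73.5 and 77.9 normalised CPM in control, 88.2, 65.8 and 75 with Hb and 215, 234 and 231 with Hb+NTR1. Control and Hb libraries overlapped, with the Hb libraries spread widest, and the Hb+NTR1 libraries lay above all of them. It rose 2.97-fold over Hb (log2 fold change 1.57 ± 0.0811, edgeR adjusted p = 5.37e-14), the largest rise of the 35 genes apart from Atp6v0a4, which had few reads. Atp6v0a2, the isoform of the Golgi and endosomes, went from 68.9 ± 4.04 to 94.7 ± 2.44 (log2 fold change 0.46 ± 0.0689). Atp6v0a2 shares 663 exon bases with 4930404A12Rik on the opposite strand. Tcirg1 encodes the a3 isoform of lysosomes and osteoclasts and is outside the symbol rule. It went from 85.5 ± 3.54 to 116 ± 5.59 (log2 fold change 0.44 ± 0.0675). Atp6v0a4 of kidney was barely detected, with 2 to 7 counts in each control and Hb library and 16 to 19 in each Hb+NTR1 library. Its log2 fold change of 1.86 ± 0.493 (adjusted p = 0.00218) rests on these few reads, and 259 of its exon bases overlap D630045J12Rik on the same strand. It passed the filter on low counts only through the Hb+NTR1 libraries. The filter thus favoured a rise, and its p-value cannot be taken as support. Atp6v0a4 is still counted in the rises and medians of both Hb+NTR1 comparisons.

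The shares of the a isoforms were set side by side. Counts were divided by exon length and each isoform was given as a percent of the 4. Atp6v0a1 took 29.6, 30.4 and 32.1% in control, 30.6, 26.3 and 28.95% with Hb and 45.45, 46.6 and 47.9% in Hb+NTR1. The Hb+NTR1 libraries did not overlap the others. Tcirg1 held the largest share in control, 43.5% ± 2.03, and in Hb, 45.9% ± 1.69, and held 33.1 to 34.7% in Hb+NTR1 (SD, n = 3). Atp6v0a2 went from 25.3% ± 0.548 in Hb to 19.03% ± 0.890 in Hb+NTR1. A permutation test of 3 libraries against 3 cannot go below p = 0.1, so these shares were not tested. The division uses all annotated exons of a gene, which need not be the transcripts these cells make.

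**Figure D3:**
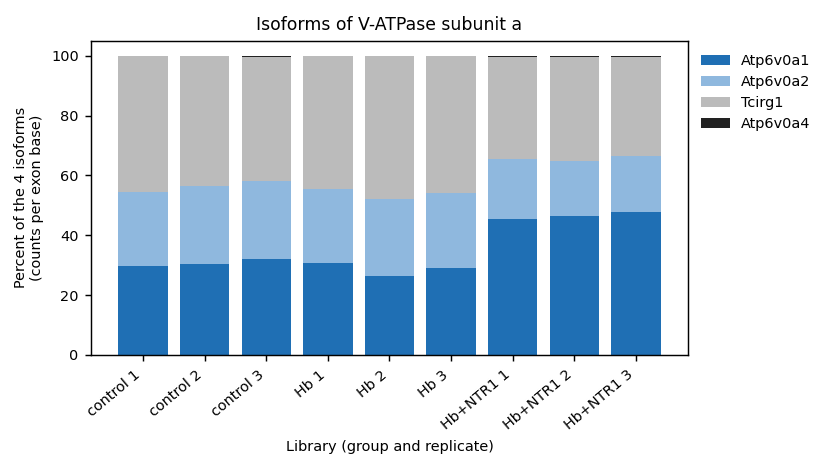
Share of each isoform gene of V-ATPase subunit a among the 4 (percent of counts per exon base, vertical axis) in each of the 9 libraries. Atp6v0a1 takes 26.3 to 32.1% in the 6 control and Hb libraries and 45.45 to 47.9% in the 3 Hb+NTR1 libraries.

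Atp6v0d1 (chromosome 8, 105524465 to 105566047), which couples the ring to the rotor stalk, had 71.5, 72.5 and 73.8 normalised CPM in control, 84, 83.3 and 81.3 with Hb and 195, 204 and 196 with Hb+NTR1. Each Hb library lay above each control library without a call (log2 fold change 0.19 ± 0.0629, edgeR adjusted p = 0.102, and 0.0338 with library totals only). The Hb+NTR1 libraries lay 2.40-fold higher than Hb (log2 fold change 1.26 ± 0.0614, adjusted p = 1.84e-14). The d isoform of osteoclasts and kidney, Atp6v0d2, had 2 counts, both in 1 Hb+NTR1 library. Osteoclast markers Acp5, Ctsk and Calcr together had at most 0.918 CPM in any library. Of 4 macrophage markers, Csf1r, Adgre1 and Ptprc stayed under 1 CPM in every group mean. Cd68, which is also a glycoprotein of lysosomes and endosomes, went from 5.24 ± 0.492 in Hb to 45.1 ± 1.47 CPM in Hb+NTR1, and its part in the pump result was not tested. The 3 markers of kidney intercalated cells, which carry the kidney isoforms, summed to at most 0.133 CPM in any library.

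Among the proteolipids and small V0 subunits, Atp6v0b, Atp6v0e and Atp6v0e2 rose in Hb+NTR1 against Hb. Atp6v0b (chromosome 4, 117884326 to 117887333), a proteolipid of the ring, had 99.8, 95.2 and 100.5 normalised CPM in control, 134, 151 and 116 with Hb and 160.2, 181 and 156 with Hb+NTR1. It rose in both steps, with a log2 fold change of 0.44 ± 0.0806 over control (edgeR adjusted p = 0.00151) and 0.31 ± 0.0794 for Hb+NTR1 over Hb (adjusted p = 0.00171). The sizes of the steps were not tested against each other, and without Hb replicate 2 they were 0.34 and 0.40. It shares 243 exon bases with Gm12841 on the opposite strand. Atp6v0e, the small e subunit, went from 83 ± 7.52 to 113 ± 12.1 with NTR1 (log2 fold change 0.45 ± 0.0792), and its isoform Atp6v0e2 from 6.02 ± 1.31 to 10.7 ± 0.935 (log2 fold change 0.83 ± 0.210).

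The level of Atp6v0c, the proteolipid that makes up most of the ring, could not be read from its own row. Its row held 114 to 200 counts a library, 9.07 ± 1.82 normalised CPM in control, and the row of the processed pseudogene Atp6v0c-ps2 held 70.7 ± 2.85. Over the 465 bases of the pseudogene, 464 are identical to an Atp6v0c transcript (99.8%), and 72.7% of its 100-base stretches occur in Atp6v0c unchanged. Reads of the coding part can therefore be counted under either name, and the labels do not state how such reads were treated. Atp6v0c alone had a log2 fold change of 0.21 ± 0.163 in Hb+NTR1 against Hb (edgeR adjusted p = 0.261) and the pseudogene row 0.85 ± 0.0850 (adjusted p = 6.17e-09). Against control Atp6v0c gave 0.41 ± 0.164 (adjusted p = 0.0327), with overlapping libraries and no call without control replicate 1 or 3 or Hb+NTR1 replicate 2 or 3 (adjusted p from 0.0959 to 0.185). Their sum was 81.2, 78.9 and 79.3 CPM in control, 94.2, 95.3 and 79.7 with Hb and 133, 176 and 158 with Hb+NTR1, without overlap between Hb+NTR1 and the rest.

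RNA of both accessory genes rose in Hb+NTR1 against Hb. Atp6ap2 (chromosome X, 12587801 to 12617049), the prorenin receptor, which is part of V0 in the assembled pump, had 137, 152 and 152 normalised CPM in control, 157, 196 and 188 with Hb and 451, 446 and 447 with Hb+NTR1. The groups were separate, with a log2 fold change of 0.29 ± 0.0734 in Hb against control (edgeR adjusted p = 0.0231) and 1.31 ± 0.0730 in Hb+NTR1 against Hb (adjusted p = 1.93e-13). The former call ended without any of the 3 control libraries (adjusted p = 0.166, 0.0698 and 0.0627), without Hb replicate 3 (0.0839) and with only the 6 libraries compared (0.0619). Atp6ap1 (chromosome X, 74297097 to 74304721), a glycoprotein needed for pump assembly, had 229, 225 and 222 normalised CPM in control, 239, 246 and 223 with Hb and 472, 472 and 463 with Hb+NTR1. It rose 1.99-fold with NTR1 (log2 fold change 0.99 ± 0.0596, adjusted p = 8.81e-13), and control and Hb libraries overlapped.

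Levels of different genes were compared per kilobase of exon. In control, Atp6v1g1 stood highest among the tested pump genes at 162 ± 5.56 normalised CPM per kb (mean ± SD, n = 3), followed by Atp6ap1 at 74.5 ± 1.25 and Atp6ap2 at 56.2 ± 3.35. Atp6v0b at 48 ± 1.39, Atp6v1f at 41.7 ± 2.74 and Atp6v0d1 at 40.5 ± 0.638 came next, the last pair within their spread of each other. Catalytic Atp6v1a at 27.2 ± 1.33 and the stalk gene Atp6v1e1 at 26.2 ± 0.554 did not differ beyond their spread. In Hb+NTR1 the order near the top changed, with Atp6ap2 at 171 ± 1.01 above Atp6ap1 at 155 ± 1.69 and Atp6v0d1 at 111 ± 2.83 above Atp6v0b at 80.8 ± 6.46. The 22 subunit rows summed to 1289 to 1331 normalised CPM in control, 1425 to 1542 with Hb and 2951 to 3070 in Hb+NTR1. This sum holds Atp6v0c without its pseudogene row and leaves out Tcirg1, so it falls short of the whole pump.

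**Figure D4:**
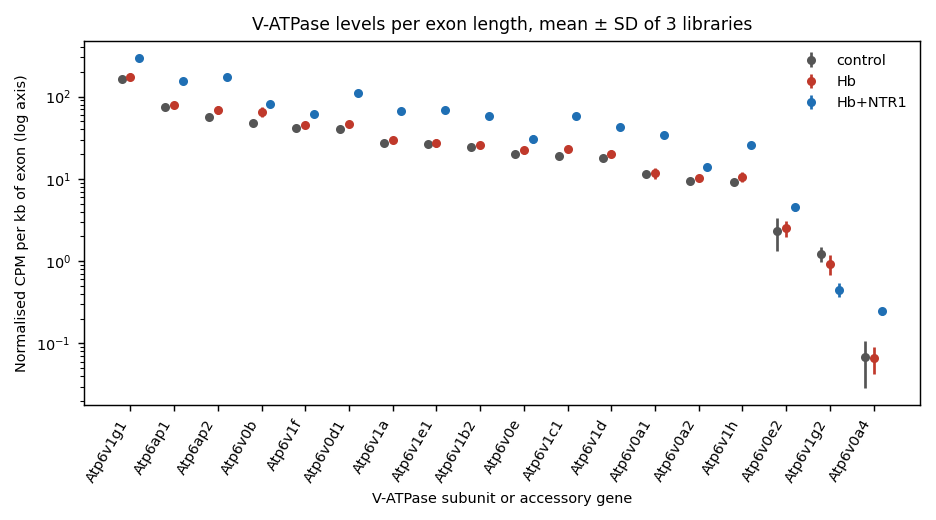
Normalised CPM per kilobase of exon (log axis) of the tested V-ATPase and accessory genes other than Atp6v0c, as mean ± SD of 3 libraries in control, Hb and Hb+NTR1, ordered by the control level. The blue points of Hb+NTR1 lie above the others for all but Atp6v1g2, and the widely made isoforms stand above Atp6v0e2, Atp6v1g2 and Atp6v0a4.

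On the docking side, Ragulator was divided. Its 5 subunits form the scaffold that Lamtor1 ties to the lysosomal membrane by lipid anchors. Lamtor3 (chromosome 3, 137918506 to 137928900) had 58.6, 55.8 and 58.8 normalised CPM in control, 60.3, 69 and 61.4 with Hb and 119, 116 and 119.6 with Hb+NTR1. It was the subunit with the largest rise (log2 fold change 0.90 ± 0.0696 over Hb, edgeR adjusted p = 8.77e-11), and its Hb+NTR1 libraries lay above all others. Lamtor5 also rose, from 53.1 ± 4.37 to 73 ± 1.61 (log2 fold change 0.46 ± 0.0788). Lamtor1 had 65.7 ± 2.85, 74.6 ± 6.34 and 73 ± 5.65 CPM in control, Hb and Hb+NTR1, and Lamtor2 had 29.2 ± 1.97, 24.9 ± 3.41 and 27.3 ± 1.75. Neither was past the threshold in any of the 3 comparisons. Lamtor1 passed in Hb+NTR1 against control with library totals only (edgeR adjusted p = 0.0217), with only the 6 libraries compared (0.0399) and without Hb+NTR1 replicate 3 (0.0453). Lamtor2 passed without Hb replicate 2, lower in Hb than in control (adjusted p = 0.0272) and higher in Hb+NTR1 than in Hb (0.0384). Lamtor1 shares 600 exon bases with Lrrc51 on the opposite strand.

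Lamtor4 moved both ways. It had 28.2, 30.5 and 31.8 normalised CPM in control, 19.9, 26.3 and 21.4 with Hb and 24.5, 32.2 and 31.5 with Hb+NTR1. The Hb libraries lay below the control libraries, and Hb+NTR1 replicate 1 lay under Hb replicate 2. It fell in Hb (log2 fold change -0.42 ± 0.115, edgeR adjusted p = 0.0402), was higher in Hb+NTR1 than in Hb (0.38 ± 0.116, adjusted p = 0.0063) and gave -0.04 ± 0.112 in Hb+NTR1 against control (adjusted p = 0.787). The fall ended without any 1 of the control libraries or of Hb replicates 1 and 3 (adjusted p from 0.06 to 0.183), with library totals alone (0.0584) and with only the 6 libraries compared (0.0521).

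Of the Rag GTPases, which work as pairs of RagA or RagB with RagC or RagD, 1 of each kind was measured. Rragc (chromosome 4, 123917446 to 123936997) had 191, 188 and 196 normalised CPM in control, 208, 224 and 216 with Hb and 319, 314 and 316 with Hb+NTR1. The 3 groups did not overlap, with Hb against control not past the threshold (log2 fold change 0.17 ± 0.0587, edgeR adjusted p = 0.121, and 0.034 with library totals only) and Hb+NTR1 1.46-fold above Hb (0.55 ± 0.0584, adjusted p = 1.87e-08). It shares 264 exon bases with 4930535I16Rik on the opposite strand. Rraga had 151 ± 7.68, 139 ± 8.24 and 157 ± 0.974 CPM. Its log2 fold change of 0.17 ± 0.0641 in Hb+NTR1 against Hb (adjusted p = 0.0243) missed the threshold in 6 alternatives, with adjusted p from 0.0516 to 0.102. Rragb had no count in any library. For Rragd, a gene that TFEB family factors are known to activate, 6 counts fell in 4 of the 9 libraries, 3 of them in control replicate 1, 1 in Hb replicate 2 and 1 each in Hb+NTR1 replicates 1 and 2. Its level was at or under the floor of 3 counts in each library, so no difference was detectable at this depth.

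Folliculin and its partners rose together. Flcn (chromosome 11, 59791408 to 59810016) had 60.8, 63.6 and 55.7 normalised CPM in control, 70.5, 75.6 and 72.3 with Hb and 121, 120 and 123 with Hb+NTR1. Every Hb library lay above every control library and under every Hb+NTR1 library. The log2 fold change was 0.28 ± 0.0698 in Hb against control (edgeR adjusted p = 0.0233) and 0.74 ± 0.0680 in Hb+NTR1 against Hb (adjusted p = 1.65e-09). Fnip1 (chromosome 11, 54438199 to 54518235), the more abundant partner, had 197, 189 and 178 normalised CPM in control, 203, 209.7 and 236 with Hb and 409.9, 377 and 386 with Hb+NTR1. It was not called in Hb (adjusted p = 0.113, and 0.0447 with library totals only and 0.0227 without Hb replicate 2) and rose 1.81-fold from Hb to Hb+NTR1 (log2 fold change 0.86 ± 0.0669, adjusted p = 9.71e-11). Fnip2 had 57.6, 53.9 and 50.6 normalised CPM in control, 65.6, 62.1 and 68.6 with Hb and 126, 117 and 124 with Hb+NTR1. Its steps were 0.28 ± 0.0728 (adjusted p = 0.0311) and 0.90 ± 0.0706 (adjusted p = 9.75e-11). Per exon base Fnip1 kept 80.4% ± 0.261 of the pair in control, 79.5% ± 0.937 with Hb and 78.95% ± 0.417 in Hb+NTR1. The Hb calls of Flcn and Fnip2 depended on single libraries. Without control replicate 1 or 3 Flcn missed (adjusted p = 0.0751 and 0.189), as it did with only the 6 libraries compared (0.066). Fnip2 missed without control replicate 2 or 3 (0.129 and 0.205), without Hb replicate 1 or 3 (0.0642 and 0.101) and with only the 6 libraries (0.0791).

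Slc38a9 (chromosome 13, 112660751 to 112738749), a lysosomal transporter that signals arginine to the Rag GTPases, stood lowest per kilobase among the tested docking genes. It had 11.6, 9.84 and 9.24 normalised CPM in control, 12.2, 12.2 and 13 with Hb and 21.3, 20.7 and 22.1 with Hb+NTR1. Hb libraries lay above control libraries without a call (log2 fold change 0.28 ± 0.122, edgeR adjusted p = 0.242), and Hb+NTR1 lay above Hb (0.78 ± 0.114, adjusted p = 2.39e-06).

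The kinase complex and its switch gave small changes. Mtor had 66.1 ± 1.44, 63.7 ± 12.8 and 77.8 ± 0.938 CPM, with a log2 fold change of 0.29 ± 0.0978 in Hb+NTR1 against Hb (edgeR adjusted p = 0.0134). Rptor, which encodes Raptor, the subunit that binds the Rag GTPases, had 97.7, 89.8 and 90.2 normalised CPM in control, 102, 74.7 and 87 with Hb and 106, 107 and 103 with Hb+NTR1 (log2 fold change 0.26 ± 0.0836, adjusted p = 0.009). In both genes Hb replicate 2 was the lowest library of all 9, and without it the calls ended (adjusted p = 0.1 for Mtor and 0.052 for Rptor). Mtor was also called against control (0.23 ± 0.0972, adjusted p = 0.0397), a call that ended without any 1 of the 6 libraries (adjusted p from 0.0627 to 0.108). Rptor was not called there (0.19 ± 0.0831, edgeR adjusted p = 0.0534), though each Hb+NTR1 library lay above each control library. It passed under some alternatives, with adjusted p from 0.00322 with only the 6 libraries compared to 0.0486 without control replicate 1. Tsc1, the scaffold of the complex that turns Rheb off, went from 70.3 ± 11.7 to 89.8 ± 1.18 (log2 fold change 0.35 ± 0.0875), also with Hb replicate 2 lowest. Rheb (chromosome 5, 24802823 to 24842624), the GTPase that activates mTORC1, had 103, 104 and 103 normalised CPM in control, 96.5, 114 and 102 with Hb and 131, 130.2 and 129.8 with Hb+NTR1. The Hb+NTR1 libraries lay above the rest (log2 fold change 0.32 ± 0.0670, adjusted p = 0.000218), and control and Hb overlapped.

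Tsc2 (chromosome 17, 24595816 to 24632630), the subunit that makes Rheb hydrolyse GTP, went the other way. It had 101, 102 and 103 normalised CPM in control, 122, 94.5 and 107 with Hb and 93.8, 88.6 and 92 with Hb+NTR1. The Hb+NTR1 libraries lay under both other groups (log2 fold change -0.24 ± 0.0769 against Hb, edgeR adjusted p = 0.0088, and -0.16 ± 0.0768 against control, adjusted p = 0.0758, or 0.00636 when Hb libraries were left out of the fit). The call against Hb ended without Hb replicate 1 (adjusted p = 0.0823), the highest library, and 693 of its exon bases overlap Pkd1 on the opposite strand.

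The 44 other genes of pump assembly, Rag control, the mTOR complexes and the TFEB family moved in both directions. In Hb+NTR1 against Hb 18 of the 42 tested rose and 15 fell, beside 30.7% and 31.6% of all tested genes, and their median log2 fold change was 0.088, beside -0.011 over all tested genes. In Hb against control none of the 42 passed by edgeR, beside 3.65% of all tested genes called in either direction. There 10 of the 42 had an unadjusted p under 0.05, 1 passed by DESeq2 and 6 without Hb replicate 2. Shares over all tested genes for these last counts are not given here. Of 9 helpers of pump assembly, 6 rose and 1 fell, where 30.7% of all tested genes rose and 31.6% fell. Dmxl2, a rabconnectin-3 subunit, had 4.64, 7.71 and 6.30 normalised CPM in control, 8.69, 7.24 and 10.2 with Hb and 23.4, 20.9 and 19 with Hb+NTR1 (log2 fold change 1.28 ± 0.153 over Hb, edgeR adjusted p = 1.17e-07). Its partner Wdr7 went from 40.4 ± 5.75 to 81.7 ± 1.56 (1.01 ± 0.0914, adjusted p = 1.14e-09), and Ncoa7, a TLDc-domain protein that binds V1, from 26.1 ± 3.25 to 58.4 ± 5.55 (1.16 ± 0.0963, adjusted p = 2.74e-10). The fall was Oxr1, another TLDc-domain gene (-0.45 ± 0.0675).

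Regulators of the Rag GTPases gave no shared direction. GATOR1, the complex that turns RagA and RagB off, had Depdc5 higher (log2 fold change 0.70 ± 0.0847) and Nprl3 lower (-0.76 ± 0.111) in Hb+NTR1 against Hb. Nprl3 shares 1340 exon bases with Mpg on the opposite strand. In KICSTOR, which tethers GATOR1 to the lysosome, Kptn (-0.71 ± 0.143, edgeR adjusted p = 0.000141) and Itfg2 (-0.37 ± 0.134, adjusted p = 0.0205) fell. The stress-induced sestrin Sesn3 rose from 58.4 ± 6.33 to 122 ± 2.54 CPM (1.06 ± 0.0773, adjusted p = 2.67e-11), and Sesn1 fell (-0.35 ± 0.0914). Of the mTOR complex genes, Rictor and Mapkap1 of mTORC2 rose, while the shared subunit Mlst8 (-0.43 ± 0.110) and the inhibitors Akt1s1 (-0.86 ± 0.105) and Deptor (-0.55 ± 0.171) fell.

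RNA of the transcription factors differed by gene. Tfeb had 11.6, 10.8 and 9.60 normalised CPM in control, 14.2, 13 and 11.4 with Hb and 8.70, 10.04 and 7.24 with Hb+NTR1. The Hb+NTR1 libraries lay under the Hb libraries (log2 fold change -0.57 ± 0.143, edgeR adjusted p = 0.00135). Tfe3, the most abundant of the family, had 76.4, 75.7 and 77.4 normalised CPM in control, 79, 67.7 and 69.6 with Hb and 81.2, 86 and 87.5 with Hb+NTR1, a small rise over Hb (0.24 ± 0.0718, adjusted p = 0.00653). In Hb+NTR1 against control neither was called, with Tfeb at -0.30 ± 0.145 (edgeR adjusted p = 0.0723) and Tfe3 at 0.15 ± 0.0713 (0.0701). Both passed there with only the 6 libraries compared (0.0482 and 0.0242). Tfeb also passed without Hb+NTR1 replicate 2 (0.0309) and Tfe3 with library totals only (0.0124). Mitf had 11.3 ± 1.11, 10.4 ± 2.50 and 9.82 ± 0.383 CPM (adjusted p = 0.67 in Hb+NTR1 against Hb), and Tfec had no counts. These are RNA levels, and whether the proteins were in the nucleus was not measured. Mcoln1, the lysosomal calcium channel, rose (0.60 ± 0.0768, adjusted p = 3.96e-07), as did the lysosomal membrane and protease genes Lamp1, from 616 ± 31.1 to 1236 ± 72.8 CPM, Lamp2, from 244 ± 8.72 to 531 ± 19.1, and Ctsd, from 163 ± 13.5 to 301 ± 22.3. Ctsd shares 808 exon bases with Gm49369 on the same strand, and Mlst8 shares 997 with Bricd5 on the opposite one.

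**Figure D5:**
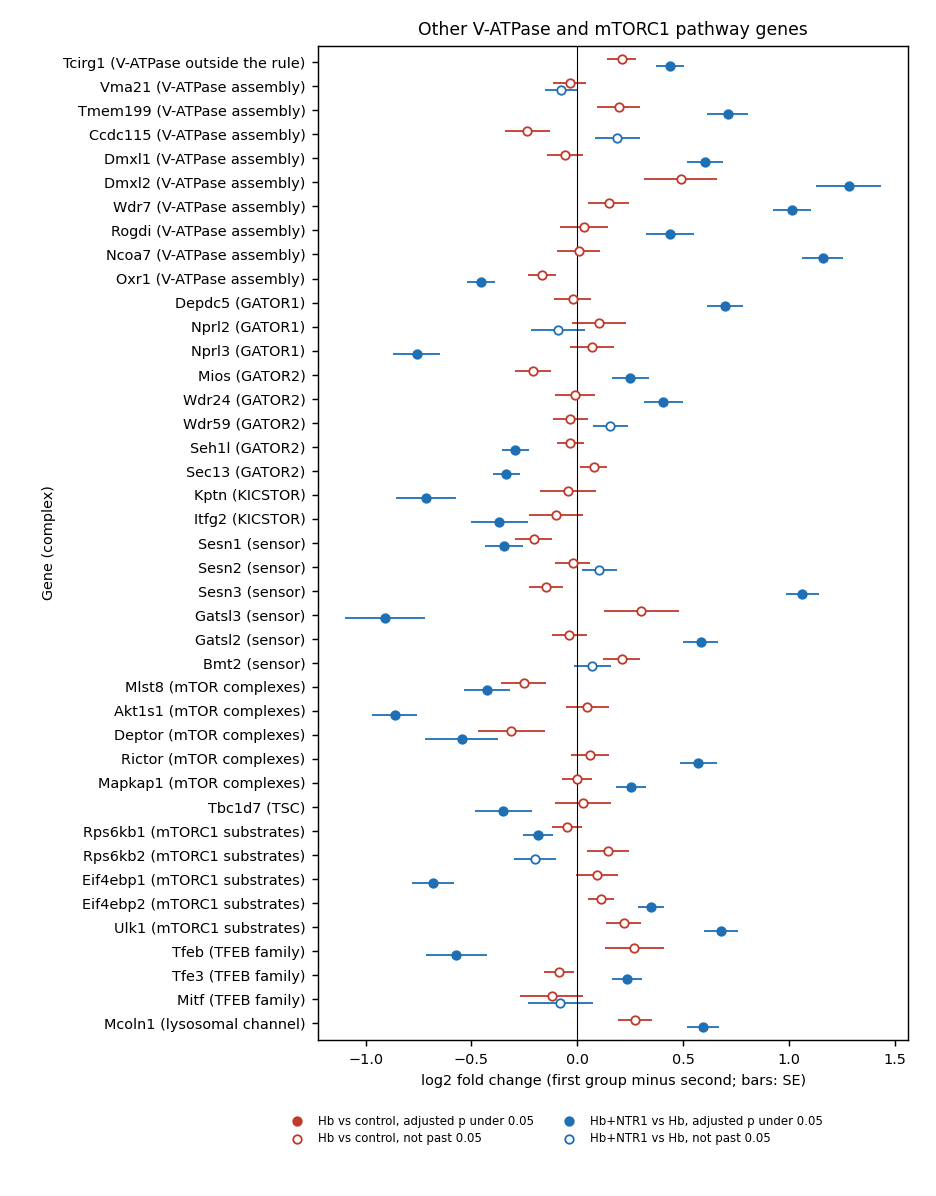
Log2 fold change (first group minus second) of all but 1 of the 42 tested pathway genes outside the main group in Hb against control (red) and Hb+NTR1 against Hb (blue), with bars for the SE and filled points for an adjusted p under 0.05. Blue points lie on both sides of 0, from -0.91 for Gatsl3, the older symbol of the arginine sensor gene Castor1, to 1.28 for Dmxl2.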

How the data were processed

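RNA of 9 libraries was isolated by poly(A) selection and prepared with a NEBNext Ultra II kit, per the labels' protocols. The authors deposited whole-number counts by gene symbol without normalisation. HTSeq 0.10.0, HISAT2 2.1.0, bcl2fastq 2.19.1.403 and build GRCm38 are listed in the submitters' processing notes. For annotation release, strand setting and multiply mapped reads, nothing is stated there. Of 54232 entries, 98 exact repeats were removed. Columns beginning in N were taken as Hb+NTR1, because only N and C columns stand in the authors' deposited comparison named for that group.

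Counts were fitted in R 4.3.3 with edgeR 4.0.16 (filterByExpr with a minimum count of 10, TMM, robust quasi-likelihood, group term, all 9 libraries in 1 fit), with a common biological coefficient of variation of 6.90%. The fit was also run on simulated counts with far fewer changed genes and no outlying library. That run therefore cannot give the error rates in these data. Each SE was derived from the F statistic (absolute log2 difference over its root). Exon lengths came from GENCODE M21 and promoters from RefSeq. Genes and lists were chosen with earlier results of these data known. By the naming rule, values by library are given for Atp6v1a, Atp6v0d1, Rragd, the 5 largest called rises and falls of each comparison with at least 5 CPM and the most abundant gene of each complex, while pathway genes (up to 4 called per comparison, plus Tfeb, Tfe3, Mitf and Tcirg1) have values by library or group means. Atp6v1g2 was added after its values were seen, as were the other genes named with group means. The values of 1 pathway gene are not reported here. Alternatives were DESeq2 size factors, library totals, other filters, DESeq2 1.42.0, the 6 libraries compared, a replicate block and each library left out.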

Additional observations from a re-analysis of the deposited data

How the results depend on the processing

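In Hb+NTR1 against Hb the number of genes called of the 35 ran from 30 to 32 over the alternatives, with 27 of 32 calls kept in each of them, and in Hb+NTR1 against control from 27 to 32, with 27 of 29 kept. Hb against control was less stable, with 2 of 6 calls kept in each alternative: 9 genes were called with library totals only, 2 with only the 6 libraries compared, and 2 to 8 with 1 library left out. Calls among the 42 pathway genes there were 2 with library totals only, 1 by DESeq2, 1 under the replicate block and 0 to 6 with 1 library left out. Shares of all tested genes called under the alternatives are not given here. The median log2 fold change of the 35 genes ran from 0.0979 to 0.1611 (Hb against control), 0.6615 to 0.7661 (Hb+NTR1 against Hb) and 0.7436 to 0.8837 (Hb+NTR1 against control) with 1 library left out, and with library totals only it was 0.1613 and 0.9263 in the comparisons with control. The cause was not tested.

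Replicate numbers showed no sign of pairing. Deviations of same-numbered libraries correlated by -0.052 to 0.091, beside -0.113 to 0.134 for libraries with different numbers. With 3 libraries in each group these values cannot establish that the cultures were unpaired. With the replicate block, 6, 32 and 30 of the 35 genes were called in the 3 comparisons, and the shares of all tested genes called in that fit are not given here.

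Some small log2 fold changes reversed. In Hb against control, with 1 library left out, Rptor ran from -0.1965 to 0.0293, Mtor from -0.1942 to 0.0937, Rheb from -0.0576 to 0.0679, Atp6v0a4 from -0.4272 to 0.3741, Atp6v0a1 from -0.0796 to 0.1343, Atp6v0e2 from -0.084 to 0.5305, Tsc2 from -0.0172 to 0.1709, Tsc1 from -0.0118 to 0.1964, Mitf from -0.3263 to 0.0114 and Ncoa7 from -0.0952 to 0.0786. Atp6v0a4 there was -0.0062 without a filter and -0.0059 by DESeq2. Lamtor1 ran from -0.0993 to 0.0274 and Mitf from -0.2153 to 0.1246 in Hb+NTR1 against Hb. Lamtor4 in Hb+NTR1 against control ran from -0.1053 to 0.082, and was 0.025 with library totals only. None of these was called in the full fit. Depth limits genes with few reads, such as Rragd and Atp6v0a4.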
